A study of Homo sapiens with 6 samples.

Results

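Serine, glycine and one-carbon metabolism was followed in OE-19 cells after IGF2BP3 knockdown through the mRNAs of 10 enzymes, namely *PHGDH*, *PSAT1*, *PSPH*, *SHMT1*, *SHMT2*, *MTHFD1*, *MTHFD2*, *MTHFD1L*, *ALDH1L2* and *PYCR1*. They were taken by gene symbol from the 60480 gene identifiers of the deposited count table, and all 10 passed the filter on low counts that left 19778 genes for testing. The list was proposed with the control and knockdown values of these libraries already known, so every change of a listed enzyme is given as a description, with its fold change and standard error and without a p-value. OE-19 is an established cell line of adenocarcinoma of the esophagogastric junction (AEG), grown in RPMI1640 medium with fetal bovine serum. Poly(A) RNA was sequenced with a directional kit in 3 control libraries, titled shControl, and 3 of an *IGF2BP3* knockdown (shIGF2BP3, here IGF2BP3 KD). The deposited counts label the control libraries Puro, and the vector that the control cells carried is not given in the sources used here. The hairpins and whether the cells of a group were 1 line or several are not given in the sources used here. Nothing says that the 3 libraries of a group came from separate cultures, so p-values measure only the spread between these libraries, which may be technical.

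Cells make serine from an intermediate of glycolysis in 3 steps, carried out in order by the dehydrogenase PHGDH, the aminotransferase PSAT1 and the phosphatase PSPH. Serine hydroxymethyltransferases then split serine into glycine and a carbon unit bound to folate, SHMT2 in mitochondria and SHMT1 in the cytosol. In mitochondria the carbon unit is oxidised by MTHFD2 and released as formate by MTHFD1L, and ALDH1L2 can oxidise it to carbon dioxide. In the cytosol MTHFD1 takes up formate and returns the carbon unit to folate for the synthesis of purines and thymidylate. PYCR1 completes proline synthesis in mitochondria and is often studied with these enzymes, because the transcription factor ATF4 is known to activate the genes of both routes. IGF2BP3 is a reader of m6A-modified mRNA.

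Total counts ranged from 53424071 to 69989087 per library, and mitochondrial transcripts took 8.67% to 9.06% of them. *IGF2BP3*, the target, had 108.5 ± 2.92 CPM (TMM-scaled counts relative to library size; SD, n = 3) in control and 13.3 ± 0.996 CPM in IGF2BP3 KD cells, so its log2 fold change was -3.03 (standard error 0.06). Exons of *MALSU1* on the opposite strand share 1521 bases with it. *MALSU1* had 2187, 1999 and 1608 counts in control and 943, 1161 and 1216 in IGF2BP3 KD replicates 1, 2 and 3, and the part of shared reads in this was not tested. All 10 genes on the list examined for columnar epithelium, such as *KRT8* and *EPCAM*, were expressed. Their summed level was 19060 to 20070 CPM in control and 20700 to 21160 CPM in IGF2BP3 KD libraries. Most of that sum was *ERBB2*, with 12480 to 13400 CPM in control and 14120 to 14650 CPM in IGF2BP3 KD libraries. *ERBB2*, a receptor gene, is no marker of this cell type by itself, so the sum mostly describes *ERBB2*. Of the 10 genes, 3 were called lower (*KRT8*, *KRT18* and *ELF3*) and 2 higher (*ERBB2* and *EPCAM*). The 4 endothelial markers summed to at most 0.563 CPM, and the 5 squamous markers to at most 2.93 CPM. The 6 fibroblast markers summed to 21.2 to 24.6 CPM in control and 29.9 to 34.4 CPM in IGF2BP3 KD libraries, nearly all from *COL1A1*, while *COL1A2* was listed at 0. The 5 immune markers summed to 2505 to 2733 CPM in control and 2542 to 2615 CPM in IGF2BP3 KD libraries, nearly all from *LYZ*, with *CD3E* listed at 0, while *CD68* had 32.8 to 37.5 CPM in control and 48.6 to 54.1 CPM in IGF2BP3 KD libraries. The part of these markers in the results was not tested.

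In IGF2BP3 KD cells, 4 of the 10 enzymes were called lower and 1 higher at an adjusted p under 0.05 in the fit over all genes, which called 20.4% of the 19778 genes tested, 10.6% as lower and 9.87% as higher. The 4 lower enzymes were *MTHFD1L*, *MTHFD2*, *PSPH* and *MTHFD1*, and the higher one was *PSAT1*. *PHGDH*, *SHMT1*, *SHMT2*, *PYCR1* and *ALDH1L2* were not called. The largest change among the called enzymes was that of *MTHFD1L*, which fell by 29.4%, so all of these changes were small against that of *IGF2BP3*. The median log2 fold change of the 10 enzymes was -0.05, against 0.01 for all genes tested. The values of the 2 groups did not overlap in 6 enzymes, and they did not overlap in 35.8% of all genes tested. In bulk RNA, fewer cells that express a gene and less of its mRNA per cell cannot be told apart.

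**Figure D1:**
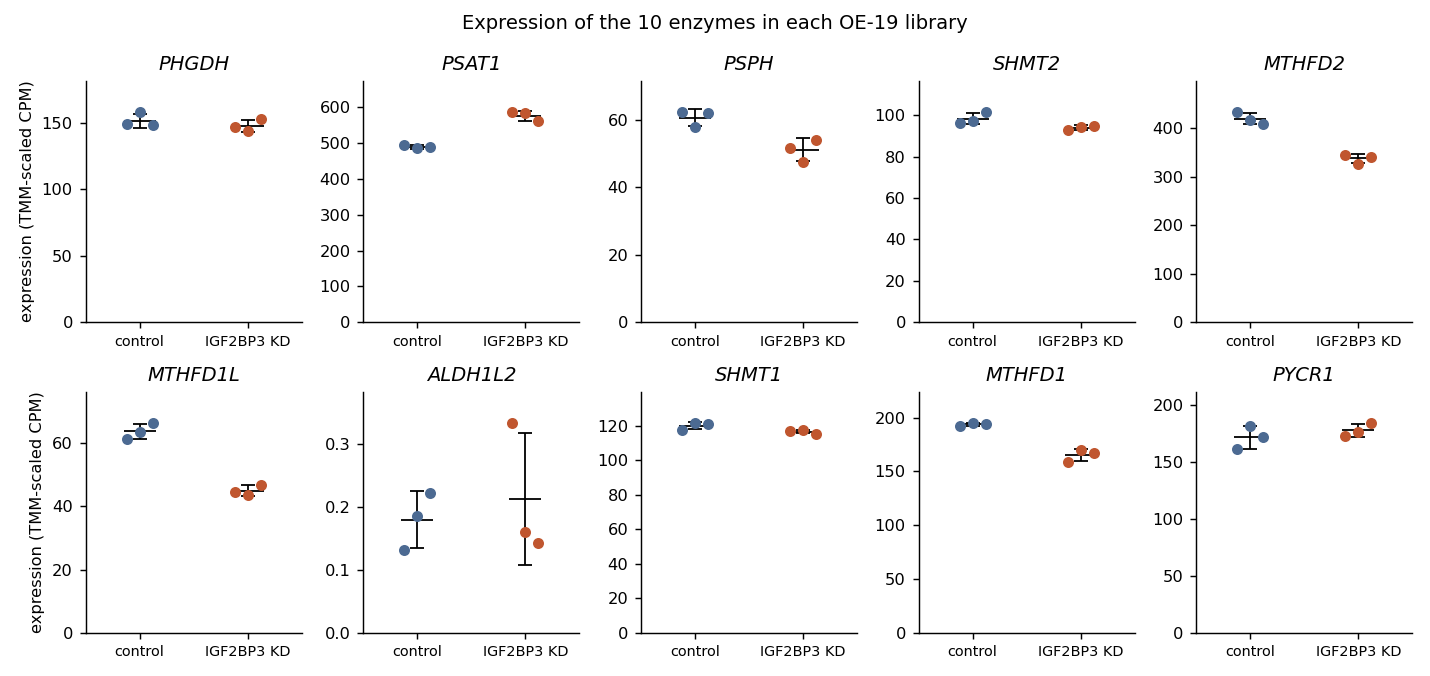
Expression of each enzyme in TMM-scaled CPM on the vertical axis, from 0, in the 3 control and 3 IGF2BP3 KD libraries (points), with the mean (horizontal line) and SD (bars). The groups are apart for *PSAT1*, *PSPH*, *SHMT2*, *MTHFD2*, *MTHFD1L* and *MTHFD1*, and *ALDH1L2* stays under 0.334 CPM in all 6 libraries.

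In control cells the enzymes spanned a wide range of levels. The CPM of a gene divided by the length of its canonical transcript in kilobases (CPM per kb) allows levels of different genes to be compared. *PSAT1* stood highest with 221.8 ± 2.25 CPM per kb (SD, n = 3), above 98.6% of 13990 coding genes tested. *MTHFD2* followed with 95.3 ± 2.67 CPM per kb, and then *PHGDH* with 81.3 ± 2.84 and *PYCR1* with 75.5 ± 4.58 CPM per kb, whose ranges over the control libraries overlapped each other. *MTHFD1* had 61.5 ± 0.401 CPM per kb. *SHMT1* with 47.5 ± 0.887 and *SHMT2* with 45.5 ± 1.24 CPM per kb again overlapped in their ranges. The mRNAs of the cytosolic and mitochondrial forms were thus close in level when the canonical length was used. *PSPH* had 30.7 ± 1.23 and *MTHFD1L* 18.5 ± 0.719 CPM per kb. *ALDH1L2* was at the bottom with 0.0242 ± 0.00614 CPM per kb, and only 0.558% of the coding genes tested lay below it. In IGF2BP3 KD cells *PSAT1* was still first, while *MTHFD2* at 76.7 ± 2.21 CPM per kb now overlapped in its range with *PHGDH* at 79.2 ± 2.49 and *PYCR1* at 78.2 ± 2.49 CPM per kb. These ranks rest on the transcript length. When all annotated exons of a gene were used instead, *PSAT1* kept rank 1 and *ALDH1L2* rank 10, and the levels between them were ordered differently.

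The 3 enzymes of serine synthesis did not move together. *PHGDH* (ENSG00000092621, hg38 chromosome 1, 119648411 to 119744218, plus strand), which catalyses the first step, had 149.1, 158 and 148 CPM in control replicates 1, 2 and 3, and 147, 144 and 153 CPM in IGF2BP3 KD replicates 1, 2 and 3. The groups overlapped, and the log2 fold change was -0.04 (95% interval -0.12 to 0.05).

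*PSAT1* (ENSG00000135069, chromosome 9, 78297125 to 78330093, plus strand), the enzyme of the second step, had 495, 485 and 488 CPM in control and 586, 584 and 560.4 CPM in IGF2BP3 KD replicates 1, 2 and 3. All IGF2BP3 KD libraries were above all control libraries, and the level was higher by 17.9% (log2 fold change 0.24, standard error 0.03). *PSAT1* was the only one of the 10 enzymes called higher, and its exons overlap no other annotated gene. Its 4 pseudogenes together had 9 to 41 counts per library, at most 0.13% of the counts of *PSAT1*.

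*PSPH* (ENSG00000146733, chromosome 7, 56011051 to 56051604, minus strand), the phosphatase of the last step, had 62.2, 57.9 and 61.9 CPM in control and 51.7, 47.5 and 54.1 CPM in IGF2BP3 KD replicates 1, 2 and 3. Again the groups did not overlap, but in the opposite direction to *PSAT1*, and *PSPH* fell by 15.7% (log2 fold change -0.25, standard error 0.06). The pseudogene *PSPHP1* had 93 to 166 counts per library, up to 5.63% of those of *PSPH*, so reads may have been split between them. With these counts added to *PSPH* its log2 fold change was -0.23.

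Within a library, a ratio of counts between 2 genes does not depend on the scaling of that library. There were 3.32, 3.07 and 3.29 *PSAT1* counts per *PHGDH* count in control and 3.98, 4.07 and 3.67 in IGF2BP3 KD replicates 1, 2 and 3. The ratio of *PSPH* to *PSAT1* was 0.124 ± 0.00409 (SD, n = 3) in control and 0.0887 ± 0.0077 in IGF2BP3 KD cells, 0.716 of its control value. The mRNA of the last step was thus lower relative to that of the second in every IGF2BP3 KD library. Because *PSAT1* is the most abundant of the 3, the summed CPM of the serine synthesis enzymes was higher in IGF2BP3 KD cells, 776 ± 8.7 against 702 ± 3.99 CPM.

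**Figure D2:**
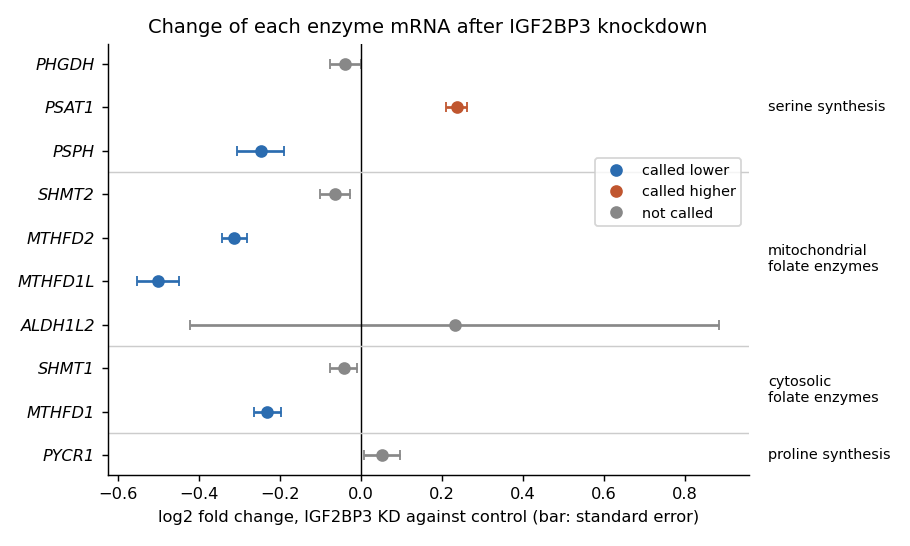
Log2 fold change of each enzyme, IGF2BP3 KD against control, on the horizontal axis, with the standard error as bars, grouped by role. The values run from -0.50 for *MTHFD1L* to 0.24 for *PSAT1*, with a wide error for the scarce *ALDH1L2*.

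Among the mitochondrial folate enzymes, the 2 that follow SHMT2 toward formate were lower, and *SHMT2* was not called. *SHMT2* (ENSG00000182199, chromosome 12, 57229573 to 57234935, plus strand) had 96.3, 97.1 and 101 CPM in control and 92.8, 94.3 and 94.8 CPM in IGF2BP3 KD replicates 1, 2 and 3. Although the groups did not overlap, the log2 fold change was -0.06 (95% interval -0.15 to 0.02).

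*MTHFD2* (ENSG00000065911, chromosome 2, 74186172 to 74217565, plus strand), a mitochondrial enzyme well known for its high expression in tumors, had 433, 417 and 409.6 CPM in control and 345, 327 and 341 CPM in IGF2BP3 KD replicates 1, 2 and 3. The highest IGF2BP3 KD value was well below the lowest control value, and *MTHFD2* fell by 19.5% (log2 fold change -0.31, standard error 0.03). Its counts ranged from 18650 to 29622 per library. On the opposite strand, exons of *SLC4A5* share 1324 bases with it, but *SLC4A5* had at most 116 counts in any library.

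*MTHFD1L* (ENSG00000120254, chromosome 6, 150865679 to 151101887, plus strand), which releases formate, had 61.4, 63.4 and 66.4 CPM in control and 44.4, 43.7 and 46.9 CPM in IGF2BP3 KD replicates 1, 2 and 3. The groups were far apart relative to their spread (log2 fold change -0.50, standard error 0.05). No other annotated gene shares its exons. *ALDH1L2* (ENSG00000136010, chromosome 12, 105019784 to 105107643, minus strand) had 9, 13 and 13 counts in control and 18, 10 and 9 counts in IGF2BP3 KD replicates 1, 2 and 3. At this depth no difference could be seen, since the 95% interval of its log2 fold change ran from -1.21 to 1.67, and *NOPCHAP1* and *WASHC4*, which share exonic bases with it on the opposite strand, had far more counts.

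Within libraries, *MTHFD2* had 4.49, 4.29 and 4.04 counts per *SHMT2* count in control and 3.72, 3.47 and 3.6 in IGF2BP3 KD replicates 1, 2 and 3. For *MTHFD1L* against *SHMT2* the ratio was 0.649 ± 0.00954 (SD, n = 3) in control and 0.479 ± 0.0157 in IGF2BP3 KD cells. *MTHFD1L* was also lower relative to *MTHFD2*, at 0.152 ± 0.00998 in control and 0.133 ± 0.00446 in IGF2BP3 KD cells, with no overlap. Summed over the 4 mitochondrial enzymes, expression was 582 ± 7.53 CPM in control and 477 ± 10.4 CPM in IGF2BP3 KD cells, a log2 ratio of -0.29 without overlap. Most of this sum was *MTHFD2*, with 419.5 ± 11.74 CPM in control and 337.9 ± 9.752 CPM in IGF2BP3 KD cells.

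In the cytosol *MTHFD1* was lower and *SHMT1* was not called. *SHMT1* (ENSG00000176974, chromosome 17, 18327860 to 18363563, minus strand) had 117, 121 and 121 CPM in control and 117, 118 and 115 CPM in IGF2BP3 KD replicates 1, 2 and 3. These groups overlapped, and the 95% interval of the log2 fold change ran from -0.12 to 0.03. On the opposite strand, exons of *SMCR8* share 197 bases with *SHMT1*, and *SMCR8* had 5662 to 6836 counts per library.

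*MTHFD1* (ENSG00000100714, chromosome 14, 64388031 to 64463457, plus strand), the cytosolic enzyme that takes up formate, had 193, 195 and 194 CPM in control and 159, 169.9 and 167 CPM in IGF2BP3 KD replicates 1, 2 and 3. Exons of 3 genes on the opposite strand share bases with it, *ZBTB25* among them with 1072 to 1394 counts per library. *MTHFD1* fell by 14.8% without overlap between the groups (log2 fold change -0.23, standard error 0.03). Per count of *SHMT1* there were 1.62 ± 0.0204 *MTHFD1* counts (SD, n = 3) in control and 1.42 ± 0.0499 in IGF2BP3 KD cells. By contrast, the ratio of *SHMT2* to *SHMT1* was 0.818 ± 0.0179 in control and 0.806 ± 0.0138 in IGF2BP3 KD cells, and that of *MTHFD2* to *MTHFD1* was 2.16 ± 0.073 and 2.05 ± 0.126, and both overlapped between the groups. Summed over the 2 cytosolic enzymes, expression was 314 ± 3.48 CPM in control and 282 ± 5.97 CPM in IGF2BP3 KD cells. Of this, *MTHFD1* made 193.9 ± 1.264 CPM in control and 165.2 ± 5.774 CPM in IGF2BP3 KD cells. *SHMT1* made 120.0 ± 2.242 and 116.6 ± 1.046 CPM.

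**Figure D3:**
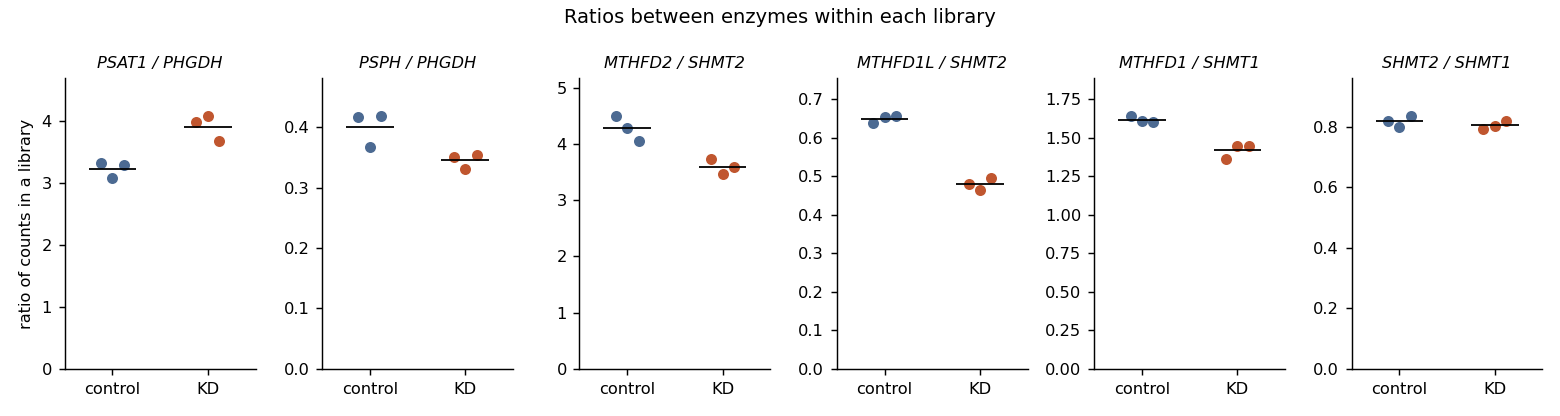
Ratios of counts between enzymes in each library, with a vertical axis from 0, for control and IGF2BP3 KD libraries (points) and their means (lines). The ratio of *PSAT1* to *PHGDH* is higher in each IGF2BP3 KD library, the ratios of *PSPH* to *PHGDH* and of the MTHFD genes to their SHMT partner are lower, and that of *SHMT2* to *SHMT1* overlaps.

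*PYCR1* (ENSG00000183010, chromosome 17, 81932384 to 81942412, minus strand) had 161, 181 and 171 CPM in control and 173, 176 and 184 CPM in IGF2BP3 KD replicates 1, 2 and 3. The groups overlapped, and the 95% interval of the log2 fold change ran from -0.05 to 0.15. It shares 408 exonic bases with *MYADML2* on its strand, which had at most 51 counts in any library.

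The sequences of the genes were searched for short words, as a description of what the enzymes share. In the 3′ UTR of the canonical transcript (GENCODE v44), GATTACT was found in 0 of the 10 enzymes and in 7.69% of 13933 tested coding genes, and ACACATC was found in *PSAT1* and *MTHFD2* and in 9.53% of these coding genes. GATTACT had been picked because genes with it were lower in these libraries, and ACACATC because genes with it were higher, so neither is independent of the changes. *PSAT1* holds ACACATC at the first base of its 3′ UTR, right after the stop codon, and again at base 394 of 1007, and *MTHFD2* at base 1023 of 3323. The sites are printed with the word in capitals because *PSAT1* was the only enzyme called higher, while *MTHFD2* with the same word was called lower.
PSAT1, first site: ACACATCctaaccagga
PSAT1, second site: tgctgaatctACACATCtgtggggtct
MTHFD2: ttttaataaaACACATCtgtctggtat
TGGAC was searched because UGGAC in RNA letters is a consensus described for IGF2BP3 targets. It occurs in the 3′ UTR of *PSAT1*, *MTHFD2*, *MTHFD1L*, *ALDH1L2*, *SHMT1* and *PYCR1* and in 61.4% of the tested coding genes. It is thus in the higher enzyme, in 2 of the 4 lower ones and in 3 that were not called.

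Promoter sequences from 250 bases before to 50 bases after a start site were at hand for 6 of the 10 genes, from RefSeq on GRCh38.p14. They were searched on both strands for TGATGNAA, letters bound by ATF4 with a C/EBP partner, for CACGTG, the E-box bound by MYC, which reads the same on both strands, and for TGACNNNGC, bound by NRF2. *MTHFD1L*, the enzyme with the largest fall, was the only one of the 6 with TGATGNAA, which 3.62% of all 35116 windows hold, and it also holds CACGTG, which 7.26% hold. Both words lie in 3 of its 4 windows, which overlap there, so each word is 1 site in the genome. The other genes searched had 1 window each, and the shares given are per window. *MTHFD1* holds CACGTG as well, and *MTHFD2* holds TGACNNNGC, read on the opposite strand, which 13.3% of all windows hold. *PHGDH*, *PSAT1* and *SHMT1* hold none of the 3. *PSPH*, *SHMT2*, *ALDH1L2* and *PYCR1* were not searched. The matches are printed in the direction of transcription with the matched letters in capitals, from chr6:150866347-150866374 and chr6:150866322-150866347 for *MTHFD1L*, chr14:64388328-64388353 for *MTHFD1* and chr2:74198611-74198639 for *MTHFD2*, all on the plus strand.
MTHFD1L, TGATGNAA: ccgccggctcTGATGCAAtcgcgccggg
MTHFD1L, CACGTG: cgcccggctcCACGTGcgcagccggc
MTHFD1, CACGTG: agtccctaagCACGTGggttgggttg
MTHFD2, TGACNNNGC: ttccctcccgGCGCAGTCAccggcgcggt
A match of letters describes the sequence and does not show that a factor binds there.

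The genes around these 10 were taken from 6 lists of enzymes and transporters, with 83 genes of which 72 were tested. In IGF2BP3 KD cells 14 of these were called lower and 8 higher, and their median log2 fold change was -0.01. Together 30.6% were called, against 20.4% of all genes tested. All genes tested also include noncoding genes, and the difference between these shares was not tested. These lists, and that of the regulators below, were chosen with earlier results of these libraries known. Neither this share nor the p-values of single genes on them are therefore independent evidence of a change.

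Purine synthesis uses the carbon units of folate. Among its 13 tested genes 6 were called lower and 1 higher, and the median of their log2 fold changes was -0.16. *GART*, which carries out a step that needs formyl-folate, went from 206 ± 3.89 to 157 ± 3.89 CPM (SD, n = 3; adjusted p = 1e-05, quasi-likelihood test of edgeR, adjusted over all genes by Benjamini-Hochberg). *PPAT*, the first committed enzyme, had a log2 fold change of -0.41 (adjusted p = 5.4e-04, same edgeR test), and *ATIC*, which also uses formyl-folate, one of -0.24 (adjusted p = 0.0013, same edgeR test). *IMPDH1*, on the branch to guanine nucleotides, was higher at 0.26 (adjusted p = 0.011, same edgeR test), but not without IGF2BP3 KD replicate 3 (adjusted p = 0.055, same edgeR test).

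Of the 17 other folate genes, 2 were lower and 1 was higher. *MTHFS*, which recycles formyl-folate, was lower at a log2 fold change of -0.68 (adjusted p = 0.0016, same edgeR test). It shares exonic bases with 2 genes, at most 758 bases, with a gene on its strand. *MTR*, methionine synthase, was lower at -0.15 and *DHFR2*, a copy of dihydrofolate reductase, higher at 0.29, with adjusted p of 0.045 and 0.039 from the same edgeR test. Leaving out control replicate 3, IGF2BP3 KD replicate 1 or IGF2BP3 KD replicate 2 ended both calls, as did control replicate 2 for *MTR* and control replicate 1 for *DHFR2*, with adjusted p of 0.093 to 0.17 and 0.068 to 0.16 from the same edgeR test.

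Of 10 tested genes that use serine or glycine, such as the glycine cleavage system, only *GCAT* was called, higher at 0.29 (adjusted p = 0.018, same edgeR test), and this call held only without IGF2BP3 KD replicate 1 among the fits with 1 library left out (adjusted p of 0.052 to 0.087 in the other 5, same edgeR test). In the methionine cycle and glutathione synthesis, 1 of 11 tested genes was lower and 2 were higher. *CTH*, which makes cysteine from cystathionine, went from 3.9 ± 0.127 to 6.82 ± 1.32 CPM (log2 fold change 0.81, adjusted p = 0.0043, same edgeR test). *GCLC*, the catalytic subunit of the enzyme that starts glutathione synthesis, was lower at -0.19, and it shares 529 exonic bases with a gene on its strand. *MAT2A*, which makes S-adenosylmethionine, was higher at 0.09, a call that held only without control replicate 1 among the fits with 1 library left out (adjusted p of 0.056 to 0.14 in the other 5, same edgeR test).

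Of 13 genes of proline and glutamate metabolism, 3 were lower and 2 were higher. *OAT* and *ALDH4A1*, mitochondrial enzymes at the junction of ornithine, proline and glutamate, were higher at 0.33 and 0.26, and *GLUL*, glutamine synthetase, was lower at -0.22.

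Among the transporters of serine and glycine, 2 of 8 tested genes were lower and 1 was higher. *SLC1A4*, which carries serine and alanine, went from 71.4 ± 3.12 to 51.9 ± 1.68 CPM, and *SLC1A5*, which carries glutamine and serine, had a log2 fold change of -0.27 (adjusted p = 7.1e-05 and 2e-05, same edgeR test). *SFXN3*, a relative of the mitochondrial serine carrier *SFXN1*, was higher at 0.26 (adjusted p = 0.015, same edgeR test), but not without control replicate 1, control replicate 2 or IGF2BP3 KD replicate 2 (adjusted p of 0.055 to 0.068, same edgeR test), and *SFXN1* itself was not called at 0.11. *SLC38A1*, *SLC38A2* and *SLC38A4* were listed at 0 in all 6 libraries.

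The genes known to act upstream of these enzymes were examined as a list of 18 regulators. Of these 6 were lower and 2 were higher, against 10.6% lower and 9.87% higher among all genes tested, and this difference was not tested. *ATF4*, the transcription factor that activates the serine synthesis genes, had 437, 444 and 429.7 CPM in control and 377, 384 and 387 CPM in IGF2BP3 KD replicates 1, 2 and 3, a log2 fold change of -0.19 (adjusted p = 2.8e-04, same edgeR test). *CEBPB*, which can pair with ATF4, was lower at -0.29, *PPP1R15A*, which reverses the stress signal that raises ATF4, at -0.23, and *NFE2L2*, which encodes NRF2, at -0.16. Exons of *NFE2L2* share 3509 bases with a gene on the opposite strand, and the part of shared reads was not tested. The kinases *EIF2AK3* and *EIF2AK2*, which phosphorylate the initiation factor eIF2, were higher at 0.43 and 0.27. *MYC* was not called at -0.08.

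Of 21 other genes known as ATF4 targets, 16 were lower, 1 was higher and 4 were not called, against 10.6% lower and 9.87% higher among all genes tested, and their median log2 fold change was -0.41. This list was chosen with results of these libraries known, so its count is no independent evidence of a direction. *CHAC1*, which degrades glutathione, went from 65.5 ± 1.27 to 30.7 ± 0.913 CPM (log2 fold change -1.09, adjusted p = 1.5e-07, same edgeR test). *VLDLR*, a lipoprotein receptor, was lower at -1.02 and *ATF3*, a stress-induced transcription factor, at -0.67. *NUPR1*, the 1 gene called higher, had only 9 to 62 counts per library, and it shares 909 exonic bases with a gene on its strand. The call of *NUPR1* held only without IGF2BP3 KD replicate 1 among the fits with 1 library left out (adjusted p of 0.063 to 0.2 in the other 5, same edgeR test). The median log2 fold change of the 10 enzymes was -0.05, and its difference from this list was not tested.

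**Figure D4:**
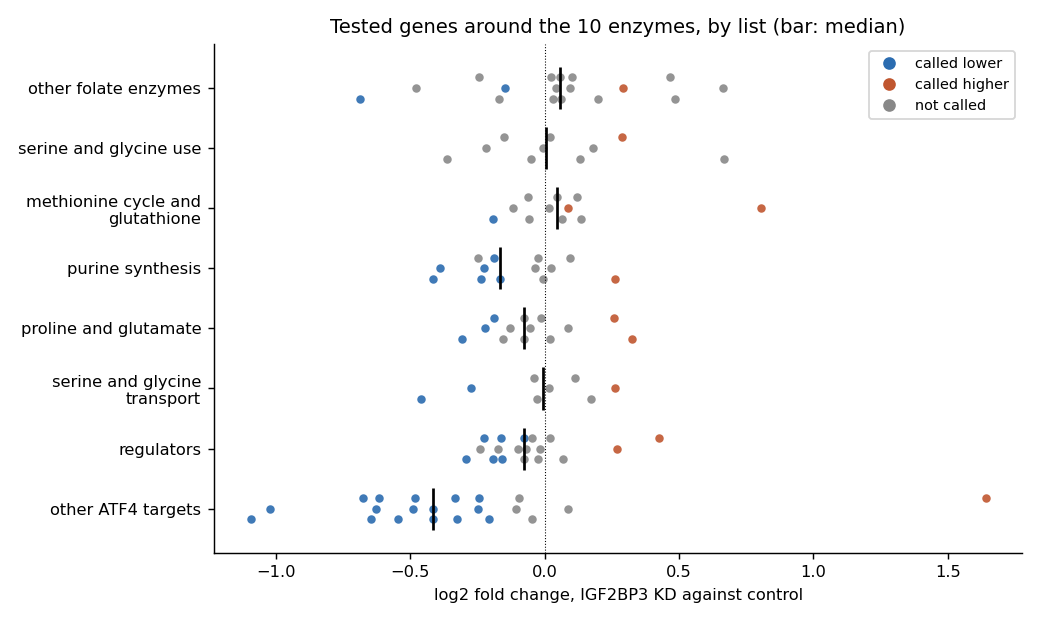
Log2 fold change, IGF2BP3 KD against control, of every tested gene on 8 lists (points, coloured by call), with the median of each list as a vertical bar. Medians lie between -0.16 and 0.06 for the first 7 lists and at -0.41 for the other ATF4 targets.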

How the data were processed

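RNA-seq was done on 3 control and 3 IGF2BP3 KD libraries of OE-19 cells with paired reads of 150 bases. The submitters' processing notes name fastp, HISAT2 and featureCounts on hg38. The versions, the annotation release and the strand setting are not given in the sources used here. The authors deposited raw counts per gene, without normalization. Repeated entries (132 of 44 identifiers, none on a list used here) were left out, and the first entry of each was kept.

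For the tests, edgeR 4.0.16 (R 4.3.3) was used with TMM scaling and filterByExpr (minimum count 10, minimum total 15), followed by glmQLFit and glmQLFTest with no block. The p-values of 19778 genes were adjusted by Benjamini-Hochberg (threshold 0.05). The steps were tested on simulated data. The smallest p that exact permutation, two-sided, allows for 1 value with 3 libraries against 3 is 0.1. Libraries of a group differed beyond sampling noise (chi-square per degree of freedom 9.89 to 17.4). Each was counted as 1 sample, although this spread may be technical and does not show separate cultures.

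The members and gene lists were chosen with earlier results of these data known. Named outside the 10 enzymes are up to 4 called genes per list with the largest absolute change, and *ATF4*, *NFE2L2* and *MYC*. A gene that this rule names is not reported here. Genes named beyond this rule (*COL1A1*, *COL1A2*, *LYZ*, *CD3E*, *CD68*, other markers, *SFXN1*, the *SLC38A* genes and those near them) were chosen after their values were seen. *MALSU1* and *SMCR8* were also named after their values were seen. Positions, transcript lengths and 3′ UTRs come from GENCODE v44 (hg38), which holds 99.97% of the genes tested. Alternatives were DESeq2 1.42.0, RLE scaling, other filters, a replicate block, each library left out, coding genes only, a threshold of 0.01 and, for the enzymes, added pseudogene counts. The alternatives for levels, exon length among them, and the count of calls with pseudogene counts were added after the data were seen.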

Additional observations from a re-analysis of the deposited data

How the results depend on the processing

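The counts of called enzymes, 4 lower and 1 higher, were the same under 13 alternatives, DESeq2 and the added pseudogene counts among them, and an adjusted p under 0.01 left 3 lower and 1 higher. *PSPH* was the enzyme that lost its call at 0.01. No log2 fold change of an enzyme changed its sign except that of *ALDH1L2*, which ranged from -0.24, without IGF2BP3 KD replicate 1, to 0.45 when 1 library was left out. *PSPH* ranged most among the called enzymes, from -0.29 to -0.20. Over all genes that threshold left 1314 lower and 1098 higher. Of the 72 other pathway genes, 8 were higher, against 5 without a filter on low counts and 3 at an adjusted p under 0.01. The count was 5 without control replicate 1, 5 without control replicate 2 and 4 without IGF2BP3 KD replicate 2, and from 4 to 6 over all fits that left out 1 library. With the lengths of all annotated exons, control levels were 36.7 for *MTHFD2*, 16.5 for *PHGDH*, 59.3 for *PYCR1*, 11.2 for *MTHFD1*, 17.1 for *SHMT1*, 21.4 for *SHMT2*, 21.96 for *PSPH* and 13.0 CPM per kb for *MTHFD1L*. Same-numbered libraries did not deviate together (correlations from -0.05 to -0.01), so the numbers were not taken as pairs. With the replicate number as a block, 2026 genes were lower and 1875 higher, and the enzymes were again 4 lower and 1 higher. Among the named genes, the calls of *MTR* and *NUPR1* were lost. Of the 72 other pathway genes 12 were lower, against 14 without a block, and of the regulators 7, against 6. Among the enzymes only *ALDH1L2* had few counts, 9 to 18 per library. The smallest change that could be seen in the others was not measured.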

Other observations

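*SLC38A1*, *SLC38A2* and *SLC38A4*, transporters of small neutral amino acids, lie next to each other on chromosome 12, and the table lists them at 0 in all 6 libraries. They are part of 5 coding genes in a row at 0, from *ARID2* through *SCAF11* to *SLC38A4*, between 45729706 and 46832408 of hg38. *ANO6*, the neighbour before them, had at most 1 count in any library, and *DBX2* before it was also at 0. *AMIGO2* and *PCED1B*, the neighbours after them, had 1704 to 3810 and 430 to 975 counts per library. Of the 17 annotated genes of all types in this stretch, 14 were at 0 in all libraries, and none had more than 1 count. The zeros were the same in control and IGF2BP3 KD libraries, and their cause was not tested.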
